A study of Bos taurus with 50 samples.

Results

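The subject of this report is the endometrium, the inner lining of the uterus, of postpartum dairy cows at week 9 after calving. The comparison was between the 10 week 9 libraries labelled as coming from cows that were cycling with progesterone (P4) at week 5 (CycW5) and the 11 week 9 libraries from cows labelled as not cycling at week 5 (NoCycW5). These 21 libraries were chosen by their labels from the 50 of the series. The other libraries were the 22 taken from the same categories at week 5, which entered the fit, and 7 from cows that were cycling without P4 at week 5, which were left out.

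By the study's methods, the CycW5 cows had a corpus luteum and circulating P4 at week 5, whereas the NoCycW5 cows had follicles but no corpus luteum. All cows were primiparous Holstein and Jersey crosses in lactation on a single farm and were given the same hormonal synchronization after the week 5 biopsy. At the week 9 biopsy, both groups were therefore meant to be on day 13 of the estrous cycle, with a corpus luteum secreting P4. The week 9 comparison asked whether the earlier or later return of ovarian cyclicity was still visible in the endometrial transcriptome once the cows had been brought to the same day of the cycle. The labels do not tie libraries to cows. The microbiota scores and the cow effect that the study modeled were not used here, so the P values measure the spread between libraries of a group.

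The corpus luteum secretes P4 after ovulation. During the luteal phase, P4 first acts through its receptor in the endometrium and then reduces that receptor in the epithelium, and the glands turn to secreting the nutrients (histotroph) on which an early conceptus depends. When pregnancy is not recognized, estrogen and oxytocin receptors return to the endometrium late in the cycle, and pulses of prostaglandin F2 alpha end the life of the corpus luteum. Biopsies are mixtures of luminal and glandular epithelium, stroma, vessels and immune cells.

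The week 9 libraries held 21592867 to 32453713 reads assigned to genes in the CycW5 group and 22707284 to 28694045 in the NoCycW5 group. Of 18830 genes in the table, 15483 were abundant enough to be tested. Levels are given as CPM (read counts scaled to a common library size), and log2 fold changes are CycW5 minus NoCycW5, so that a positive value is a greater mRNA abundance in CycW5. The deposited table names genes by Ensembl identifier alone, and a symbol could be paired with 2233 of the tested genes. These symbols came from the study's lists of differentially expressed genes. The paired genes had thus been called in some comparison or microbiota association of the same study and are no neutral sample of all genes. The gene lists below are therefore described only by the members that could be paired. Sums of paired marker genes are given as a description of the libraries. No threshold or reference tissue was used, so tissue identity was not tested. The summed abundance of 6 paired epithelial genes was 405 to 1380 CPM in the CycW5 libraries and 470 to 1560 CPM in the NoCycW5 libraries. For the 2 paired fibroblast genes, PDGFRA and FBLN1, the sums were 800 to 1920 CPM and 929 to 1370 CPM. The 6 endothelial genes summed to 295 to 670 CPM and 224 to 628 CPM.

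The week 9 libraries spread widely, and the spread ran across the groups. In a principal component (PC) analysis of the 1000 most variable genes, PC1 took 47.2% of the variance and PC2 took 9.35%. A cluster of 13 libraries, 6 from CycW5 and 7 from NoCycW5 cows, lay between -32.5 and -17.9 on PC1. CycW5 library 72 and NoCycW5 library 80 lay near each other at -7.5 and -6.3, with PC2 scores of -35.1 and -27.5. The remaining 6 libraries had positive PC1 scores. In the NoCycW5 group these were library 75 (29.7), library 91 (59.9) and library 76 (61.3). In the CycW5 group they were library 83 (32.7), library 87 (68.7) and library 89 (75.5). Each group thus placed 3 libraries on the far side of the main axis and 1 at the intermediate position.

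**Figure D1:**
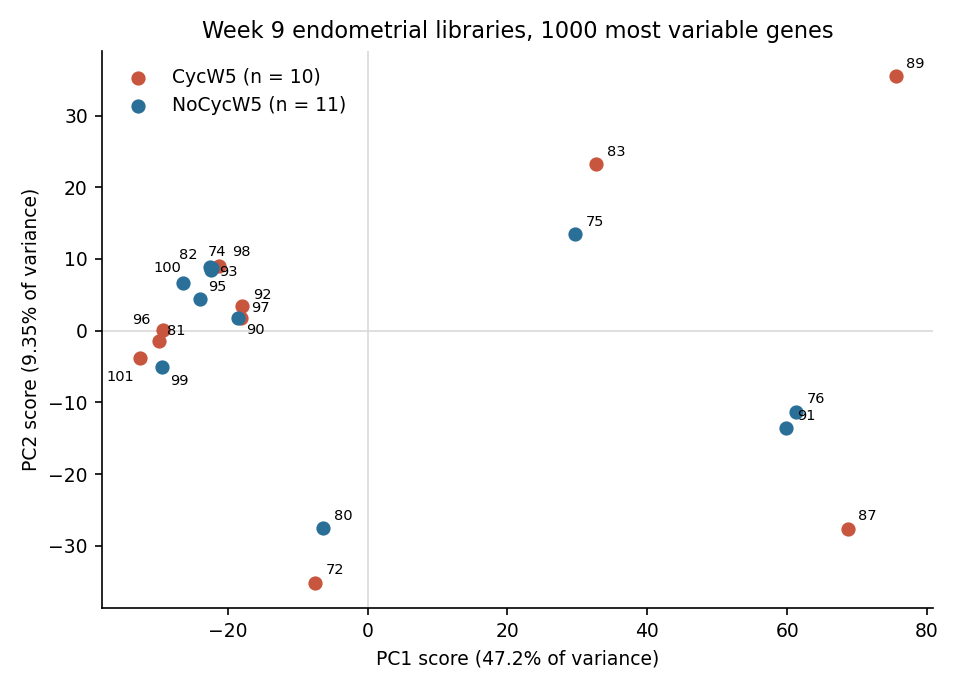
Scores of the 21 week 9 libraries on PC1 (horizontal) and PC2 (vertical) of log2 CPM over the 1000 most variable genes, 1 point per library with its library number, colored by group. Libraries of both groups are found in the cluster on the left and among the 6 libraries of positive PC1.

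The mean PC1 score was 2.07 ± 41.4 (SD, n = 10) in CycW5 and -1.89 ± 34.9 (SD, n = 11) in NoCycW5. The difference of 3.96 was small beside either SD (two-sided permutation test, 100000 resamples, P = 0.803). On PC2 the difference was 0.951 (permutation P = 0.90). Over the same genes, the group labels accounted for 3.51% of the variance at week 9. In the week 5 libraries they accounted for 34.3%, over the 1000 genes most variable in those libraries. Of the 21 libraries, 13 had a library of the other group as their nearest neighbor. These were 8 of the 10 CycW5 libraries and 5 of the 11 NoCycW5 libraries. The median distance between 2 libraries was 68.0 across the groups (110 pairs), 77.8 within CycW5 (45 pairs) and 64.4 within NoCycW5 (55 pairs), in units of log2 CPM summed over genes as a Euclidean distance.

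The genes that carried PC1 included secreted products of the luteal endometrium at its negative end. PENK encodes proenkephalin, a precursor of opioid peptides. It had a lowest, median and highest level of 1.97, 2721 and 5720 CPM in the CycW5 libraries and 5.61, 2771 and 6440 CPM in the NoCycW5 libraries. The groups overlapped over nearly their whole range, and the lowest libraries were 87, 76 and 89, all of them with high PC1 scores. CYP26A1, an enzyme that degrades retinoic acid, ranged from 0.166 CPM (library 89) to 701 CPM (library 81) in CycW5 and from 0.812 to 613 CPM in NoCycW5. IGFBP1, an insulin-like growth factor binding protein secreted by the endometrium, had no read in CycW5 library 72 and 0.373 CPM in CycW5 library 89, beside a median of 81.9 CPM in that group. Its NoCycW5 levels were 0.627 to 321 CPM with a median of 131 CPM. LY6G6C, CHRNA2, MYL3, IL31RA, SLC39A2, KSR2 and CALB1 completed the 10 symbols with the most negative loadings.

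At the positive end of PC1 were genes of inflammation and extracellular matrix, among others. TNC, an extracellular matrix glycoprotein, ranged from 34.5 to 2520 CPM in CycW5 cows (median 133) and from 42.7 to 1790 CPM in NoCycW5 cows (median 91.9). AOX2, an aldehyde oxidase, reached 104 CPM in CycW5 library 87, 99.5 CPM in NoCycW5 library 76 and 163 CPM in NoCycW5 library 91, against medians of 0.496 and 0.345 CPM. CHI3L1 and CHI3L2, chitinase-like proteins, had medians of 2.36 and 0.10 CPM in CycW5. CHI3L1 reached 903 CPM in library 89 and 75.2 CPM in library 83, and in the NoCycW5 group it reached 90.0 CPM in library 75. MMP9, a matrix metalloproteinase abundant in neutrophils, C5, a complement component, CCL20, a chemokine, KCNE3, SERPINB13 and ANXA10 were the other symbols at this end. At both ends the extreme libraries came from both groups.

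Neither OXTR nor the estrogen receptors ESR1 and ESR2 passed the edgeR quasi-likelihood test between the groups at week 9, while the oxytocin receptor ranged widely among libraries of the same group. OXTR, the receptor through which oxytocin drives prostaglandin release, had 2.67, 7.01 and 179 CPM (lowest, median, highest) in CycW5 and 2.85, 9.08 and 165 CPM in NoCycW5. The libraries over 30 CPM were 72 (110), 83 (69.1) and 87 (179) in the CycW5 group and 75 (38.2), 76 (95.1), 80 (83.2) and 91 (165) in the NoCycW5 group. Library 89 had the highest PC1 score but only 7.92 CPM of OXTR. The OXTR log2 fold change was 0.05 (standard error 0.69, BH P = 0.992), and its 95% interval ran from -1.33 to 1.44. Its sign was negative in 15 of 35 alternative fits.

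ESR1, the main estrogen receptor of the uterus, had 73.5 ± 30.1 CPM (SD, n = 10) in CycW5 and 80.4 ± 30.7 CPM (SD, n = 11) in NoCycW5. The log2 fold change was -0.13 (95% interval -0.61 to 0.35), so a 2-fold difference in either direction lay outside the interval. The lowest ESR1 level was 30.8 CPM in library 89 and the highest was 151 CPM in NoCycW5 library 80. ESR2, the other estrogen receptor, had 13.4 ± 8.61 CPM (SD, n = 10) and 11.2 ± 5.71 CPM (SD, n = 11), with a log2 fold change of 0.26 (95% interval -0.52 to 1.05).

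**Figure D2:**
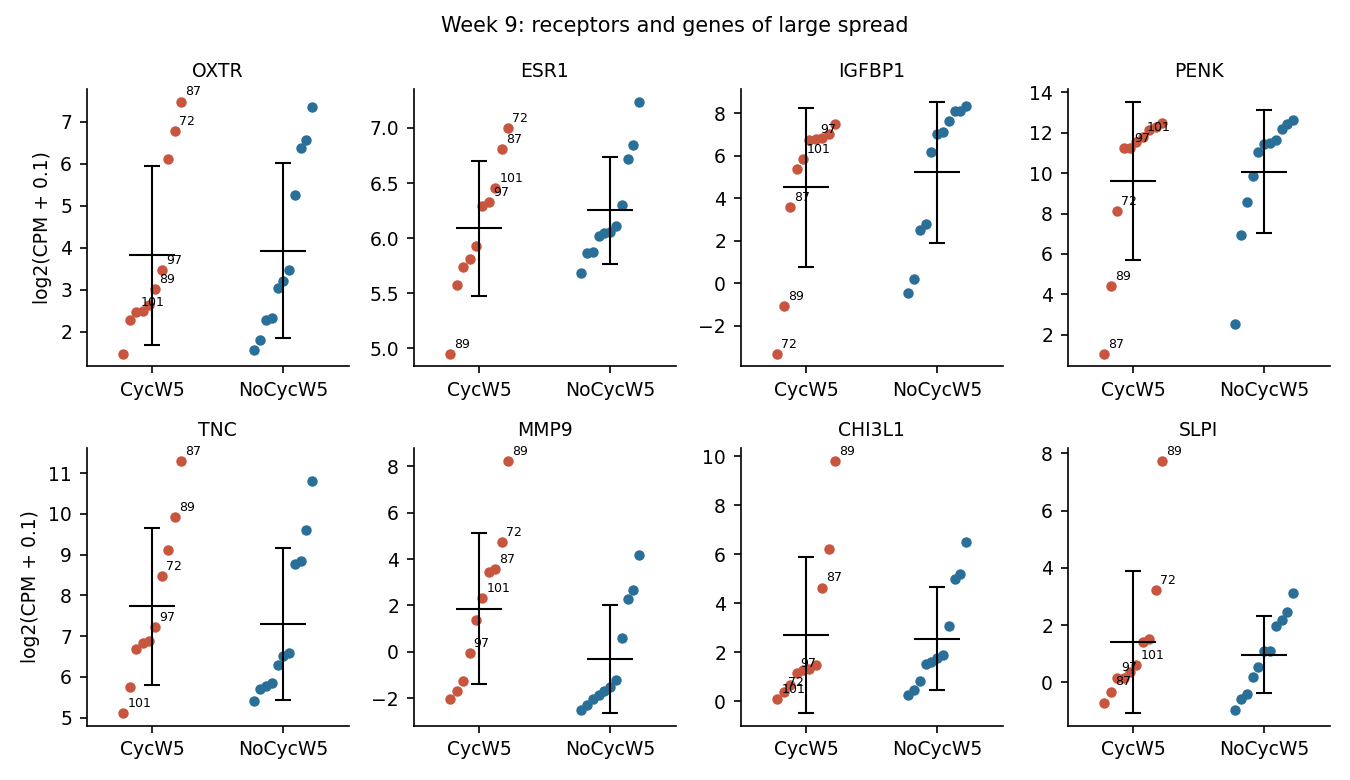
Levels of OXTR, ESR1 and 6 genes of large spread in each week 9 library, as log2(CPM + 0.1) on the vertical axis, with 1 point per library sorted by level within each group, and the mean and SD of these values as black bars. Numbers mark CycW5 libraries 72, 87, 89, 97 and 101. The groups overlap for each of the 8 genes, and library 89 alone holds the highest MMP9, CHI3L1 and SLPI.

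Across all genes, 1 of 15483 differed between CycW5 and NoCycW5 at week 9 at a Benjamini-Hochberg (BH) P of 0.05 or less (0.00646% of genes tested). With no adjustment, 992 genes had P under 0.05 (6.41%), of which 630 had the higher level in CycW5 cows and 362 the lower. The direction of this excess depended on the method, since limma-voom gave 711 genes with P under 0.05, of which 282 were higher and 429 lower in CycW5 cows. No gene had libraries that did not overlap between the groups (0%). In the week 5 libraries under the same fit, 4119 genes were differentially expressed (26.6%).

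**Figure D3:**
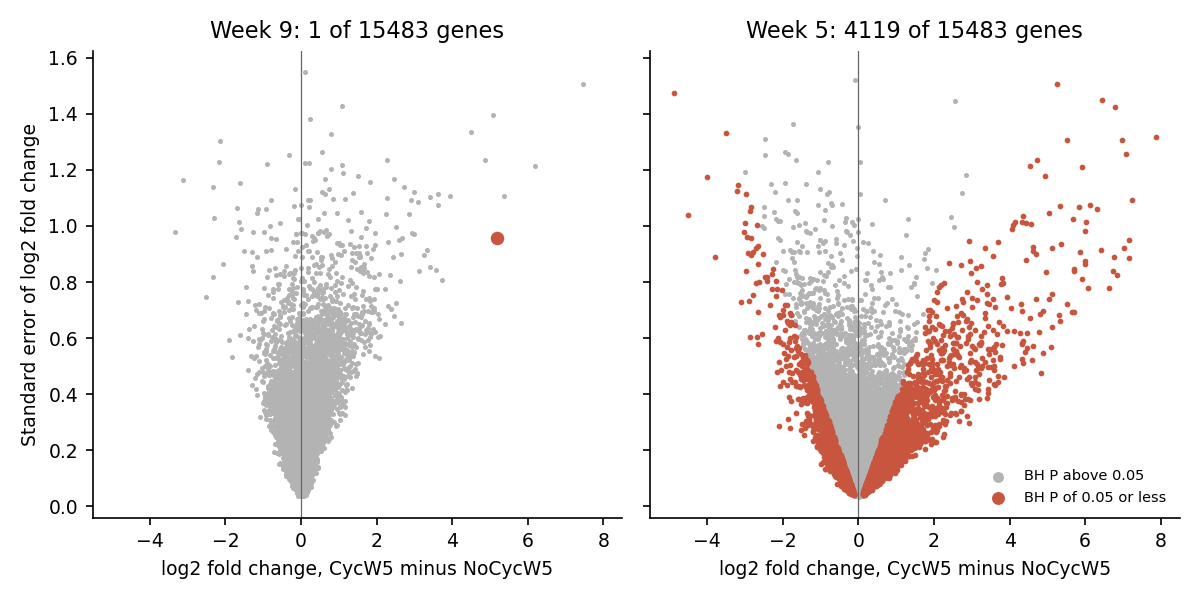
Log2 fold change of CycW5 minus NoCycW5 (horizontal) against its standard error (vertical) for 15483 genes at week 9 (left) and week 5 (right), 1 point per gene, with genes at a BH P of 0.05 or less in red. A single gene is red at week 9 and 4119 are red at week 5.

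Fold changes were small at week 9. The median absolute log2 fold change was 0.109, compared with 0.234 at week 5. A difference over 2-fold was fitted for 377 genes (2.43%) at week 9 and for 1480 genes at week 5. Under the spread estimated over both weeks, the fit bounded the difference for most genes. The 95% interval lay within 2-fold in both directions for 12628 genes (81.6%), with a median standard error of 0.155. In simulated counts with the same libraries and genes, the test called 77 of 100 genes made to differ by 2-fold and 91 of 100 made to differ by 4-fold. Those counts were drawn independently for each gene and library, without the spread that many genes share here. The recovery therefore does not give the power of the real comparison. The median log2 fold change over all genes was 0.03, and 9058 genes had a positive and 6425 a negative value.

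Genes that were differentially expressed at week 5 mostly had small fold changes at week 9. They were chosen by the week 5 test of this same fit, which favors large week 5 values. A drop at week 9 therefore follows in part from that choice. Without it, 1480 of all genes exceeded 2-fold at week 5 and 377 at week 9. The 2359 genes that were higher in CycW5 at week 5 had a median log2 fold change of 0.705 there and of 0.0716 at week 9, and 835 of them exceeded 2-fold at week 5 compared with 63 at week 9. At week 9, 140 of the 2359 had P under 0.05 with the higher level in CycW5 cows (5.93%, against 4.07% of all genes) and 16 with the lower (0.678%, against 2.34%). The 1760 genes that were lower in CycW5 at week 5 had a week 5 median of -0.49 and were evenly divided at week 9, with 880 higher and 880 lower. Of these, 30 had P under 0.05 with the higher level in CycW5 cows at week 9 (1.70%) and 57 with the lower (3.24%). The study sampled the same cows at both weeks, so the week 5 and week 9 libraries are largely repeated samples of the same cows. The labels do not pair them. The fit and its test of the difference between the weeks treated them as independent. The group contrast itself differed between the weeks for 1210 genes (BH P of 0.05 or less, 7.82%).

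The gene that passed the test was ENSBTAG00000000470, for which no symbol could be paired. Its lowest, median and highest levels were 0.0372, 0.498 and 16.1 CPM in CycW5 and 0, 0.0769 and 0.188 CPM in NoCycW5. The CycW5 libraries above the NoCycW5 range were 87 (16.1 CPM), 97 (8.59), 96 (4.33), 101 (1.96), 89 (0.539) and 98 (0.456), and the other 4 lay within it. The log2 fold change was 5.18, with a standard error of 0.96 and a BH P of 0.0466 in edgeR. At week 5, its log2 fold change was 5.99 (BH P = 1.65e-05). It was a gene of few reads, with at most 5 in any NoCycW5 library. It remained past the threshold in 7 of the 21 fits that left out 1 week 9 library. Over all 21 of these fits, its BH P lay between 0.0196 and 0.141. The call was also lost with limma-voom (log2 fold change 3.24, BH P = 0.997) and with limma-voom using library quality weights (3.38, BH P = 0.595).

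The next genes in order of P fell just short. ENSBTAG00000001703 had 3.08 ± 4.56 CPM (SD, n = 10) in CycW5 and 0.037 ± 0.0472 CPM (SD, n = 11) in NoCycW5 (BH P = 0.0607 in edgeR). Its 3 highest libraries were CycW5 libraries 87 (12.9 CPM), 97 (9.42) and 101 (4.78). ENSBTAG00000016121 was found almost wholly in CycW5 libraries 101 (11.9 CPM) and 97 (1.65), and 1 NoCycW5 library had a level above 0. ENSBTAG00000021328 reached 4.10 CPM in library 101 and 3.12 CPM in library 97, against at most 0.302 CPM in NoCycW5. These 3 genes were picked out after their values were seen.

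Among genes with a symbol, CCL21 had the smallest P. It encodes a chemokine that draws T cells and dendritic cells to lymphatic vessels and lymph nodes. CCL21 was 0, 0.407 and 5.80 CPM (lowest, median, highest) in CycW5 and 0, 0 and 0.111 CPM in NoCycW5, in which 7 of 11 libraries had no read. Its log2 fold change was 5.37 (standard error 1.11, BH P = 0.07). At week 5 the fitted log2 fold change was -1.31 (BH P = 0.222). The highest libraries were 89 (5.80 CPM), 98 (3.47) and 101 (1.87), so CCL21 did not follow the same libraries as ENSBTAG00000000470.

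DSC3 and VIL1 had their highest levels in CycW5 libraries 101 and 97. DSC3, a desmosomal cadherin of stratified epithelia, had 5.24 CPM in library 101 and 2.04 CPM in library 97, beside a CycW5 median of 0.382 CPM and a NoCycW5 maximum of 0.419 CPM (log2 fold change 3.58, BH P = 0.313). VIL1 encodes villin, an actin-bundling protein of microvilli. It had 2.01, 21.4 and 148 CPM in CycW5 and 0.369, 7.15 and 33.8 CPM in NoCycW5 (log2 fold change 2.10, standard error 0.61, BH P = 0.629). Both genes were differentially expressed at week 5, with log2 fold changes of 3.40 and 4.54. SLC38A11, a member of the sodium-coupled amino acid transporter family, had 7.12 ± 5.82 CPM (SD, n = 10) and 3.19 ± 1.71 CPM (SD, n = 11) at week 9, and again its highest libraries were 101 (21.5 CPM) and 97 (12.4 CPM). CRYBG2 had 12.6 ± 8.59 CPM and 6.92 ± 2.96 CPM, with the highest level in library 72 (27.5 CPM). The log2 fold change of VIL1 was 2.52 without the 6 libraries of positive PC1, and it was 1.55 or more when any 1 library was left out.

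Other genes on the side of greater abundance in CycW5 cows had their highest levels in 1 to 3 libraries. SERPINA1, a serine protease inhibitor, had 37.9 CPM in library 87, against a CycW5 median of 3.19 CPM and a NoCycW5 median of 0.74 CPM (log2 fold change 2.38, BH P = 0.629). Without library 87 the SERPINA1 log2 fold change was 1.21. MEOX1, a mesodermal homeobox factor, had 22.2 CPM in library 89 and at most 2.21 CPM elsewhere. Its log2 fold change was 2.22 with all libraries and 0.74 without library 89. A2M, a broad protease inhibitor, had 702 CPM in library 89 and 228 CPM in library 83, and its log2 fold change went from 1.52 to 0.57 without library 89. IL6, an inflammatory cytokine, reached 10 CPM in library 83 and 8.42 CPM in library 89. Its fitted log2 fold change of 2.03 became -0.62 without the 6 libraries of positive PC1. RIMS1, a regulator of vesicle release at synapses, was over 5 CPM in libraries 87, 97 and 101 only.

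SLPI, a secretory leukocyte protease inhibitor of mucosal surfaces, was a gene whose mean and median pointed in opposite directions. The mean was 23.5 CPM in CycW5 and 2.76 CPM in NoCycW5, but the medians were 1.30 and 2.01 CPM. Library 89 held 214 CPM, while the other 9 CycW5 libraries held 0.509 to 9.28 CPM. The log2 fold change of SLPI was 3.08 with all libraries and -0.28 without library 89. For CHI3L1 it was 2.60 with all libraries and -0.41 without library 89.

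**Figure D4:**
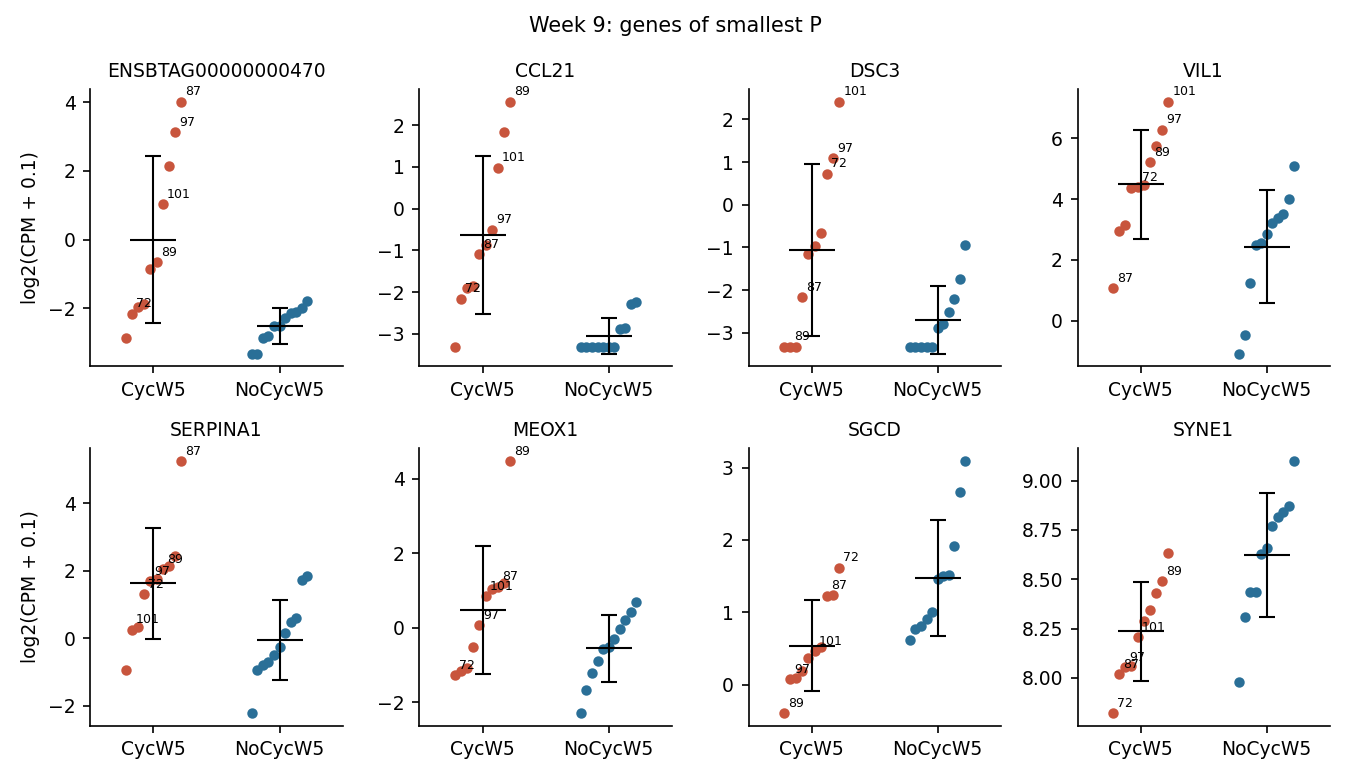
Levels of 8 genes with small P values in each week 9 library, as log2(CPM + 0.1) on the vertical axis, with 1 point per library sorted by level within each group, and the mean and SD of these values as black bars. Numbers mark CycW5 libraries 72, 87, 89, 97 and 101. The groups overlap for each gene. The highest CycW5 level is in library 87, 89 or 101, except for SGCD (library 72) and SYNE1 (library 96).

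None of the genes with lower abundance in CycW5 passed the BH threshold. SYNE1, a nuclear envelope spectrin-repeat protein, had 226, 304 and 397 CPM in CycW5 and 252, 404 and 549 CPM in NoCycW5 (log2 fold change -0.40, standard error 0.13, BH P = 0.658). SGCD encodes delta-sarcoglycan, part of the dystrophin complex of muscle. It had 1.49 ± 0.742 CPM (SD, n = 10) in CycW5 and 3.17 ± 2.22 CPM (SD, n = 11) in NoCycW5 (log2 fold change -1.08). Its highest levels were in NoCycW5 libraries 91 (8.43 CPM) and 76 (6.24 CPM). CLIC5, a chloride intracellular channel protein, had 9.43 ± 4.41 and 18.4 ± 11.3 CPM (log2 fold change -0.96). TMEM117 had 14.1 ± 4.91 and 19.3 ± 3.75 CPM, CDC7, a kinase that initiates DNA replication, had 67.5 ± 7.87 and 81.2 ± 20.3 CPM, and CEP89, a centrosomal protein, had 22.8 ± 2.01 and 25.7 ± 1.90 CPM. CDC7 had 140 CPM in NoCycW5 library 91, and its log2 fold change went from -0.27 to -0.16 without that library. The CEP89 difference of -0.17 on the log2 scale was fitted with a standard error of 0.07. TPST1, ZNF711, LRRC8B and KIAA1257 had log2 fold changes of -0.33, -0.34, -0.43 and -0.78.

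RHCG and SST had their highest levels in NoCycW5 library 91. Their log2 fold changes were -2.07 and -3.34. Leaving out any 1 library gave -2.43 to -0.32 for RHCG and -3.74 to -2.08 for SST, so both stayed negative on the log2 scale. RHCG, an ammonia transporter, had 16.7 CPM in library 91 and 3.58 CPM in library 76, and the group medians were 0.331 CPM in CycW5 and 0.267 CPM in NoCycW5. SST, the peptide hormone somatostatin, had 2.54 CPM in library 91 and at most 0.533 CPM in any other library. It was a gene of few reads, with group medians of 0.0159 CPM in CycW5 and 0.143 CPM in NoCycW5.

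No gene was called in the lists for progesterone response, histotroph transport and prostaglandins. Of the 9 paired progesterone-responsive genes, 5 had a higher and 4 a lower fitted level in CycW5 cows, with a median log2 fold change of 0.02 (0.03 over all genes), and none had P under 0.05. IGFBP1 had a log2 fold change of -0.79 (95% interval -2.99 to 1.42) and PENK of 0.02 (-1.78 to 1.82), so their intervals spanned several-fold differences in both directions. HPGD, which inactivates prostaglandins, had 597 ± 324 CPM (SD, n = 10) and 501 ± 245 CPM (SD, n = 11). Its lowest libraries were CycW5 library 87 (17.1 CPM) and NoCycW5 library 76 (22.4 CPM). PTGES, a prostaglandin E synthase, had medians of 2.59 and 2.12 CPM, and its highest library was 89 (28.2 CPM). PTGFR, the prostaglandin F receptor, reached 6.88 CPM in library 87 and 3.58 CPM in NoCycW5 library 91. Of the 7 prostaglandin genes, 6 had a higher fitted level in CycW5 cows (median 0.17) and none passed the test. Among all 15483 genes tested, 9058 had a higher fitted level (median 0.03). PTGS2, the inducible cyclooxygenase, had medians of 146 and 253 CPM and a log2 fold change of 0.10.

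Of the 7 histotroph transporters, 5 had a higher and 2 a lower fitted level in CycW5 cows, beside 9058 and 6425 of all genes tested. An unadjusted P under 0.05 was found for 6.41% of all genes and for 1 of these 7. This was SLC15A1, a peptide transporter, with 11 ± 5.31 CPM (SD, n = 10) in CycW5 and 8.11 ± 1.98 CPM (SD, n = 11) in NoCycW5 (log2 fold change 0.44, BH P = 0.76). SLC5A1, a sodium-glucose cotransporter, had 39.5 ± 24.3 and 57.8 ± 39.6 CPM. The 11 Wnt pathway genes had a median log2 fold change of 0.03, and none had P under 0.05. WNT11, a Wnt ligand, ranged from 1.23 CPM in library 87 to 62.5 CPM in library 72, and DKK1, a secreted Wnt inhibitor, from 1.27 CPM in library 87 to 155 CPM in library 98. Of the 5 growth factor genes, FGF7 alone had P under 0.05, at 3.17 ± 3.08 and 1.88 ± 0.486 CPM (log2 fold change 0.75, BH P = 0.76). Its highest level was 11.8 CPM in library 89, and without that library the log2 fold change of FGF7 was 0.24 with an unadjusted P of 0.407 in edgeR. FST, follistatin, was 4.10 CPM in library 89 and 2.73 CPM in NoCycW5 library 76, against medians of 77.2 and 102 CPM. AREG, an EGF family ligand, had medians of 2.10 and 1.92 CPM, with 21.2 CPM in library 83 and 20.9 CPM in library 72.

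Inflammatory genes and immune cell markers had many of their highest levels in CycW5 libraries 83 and 89 and in NoCycW5 library 75, and no list held a gene that passed the test. Among all 15483 genes, 9058 had a higher fitted level in CycW5 cows (median 0.03) and 6.41% had P under 0.05. Of the 10 cytokine and chemokine genes tested, 7 had a higher fitted level in CycW5 cows (median 0.35), and 2, IL6 and CHI3L1, had P under 0.05. The summed CPM of this list was 55.8 to 1430 in CycW5 and 59.9 to 423 in NoCycW5 libraries, and the group medians were 92.3 and 89.9. Within the groups, CSF3, a neutrophil growth factor, reached 25.4 CPM in library 83 and 17.4 CPM in library 75. LCN2, an antimicrobial siderophore-binding protein, reached 4.61 and 5.88 CPM in the same libraries. MUC1, a mucin of the epithelial surface, reached 124 and 134 CPM in them.

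MMP9, the only neutrophil marker that could be paired, had 0.149, 3.70 and 299 CPM in CycW5 cows and 0.0762, 0.252 and 17.7 CPM in NoCycW5 cows (log2 fold change 3.63, BH P = 0.629). Without library 89 its log2 fold change was 1.17. The T cell genes CTLA4 and ICOS were highest in library 89, at 7.83 and 20.7 CPM, and their NoCycW5 maxima were 1.18 and 8.35 CPM. CLEC10A, of macrophages and dendritic cells, was also highest in library 89 (15.8 CPM). The B cell gene CR2 was highest in library 75 (29.5 CPM), followed by library 89 (25.6 CPM). The summed epithelial markers had their lowest level, 405 CPM, in the CycW5 group, and CLDN4, a tight junction claudin, was lowest in library 89 (16.4 CPM). The part that the makeup of each biopsy had in these values was not tested. Fewer cells of a type and less RNA per cell cannot be told apart in such samples.

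Vessel and stroma markers had within-group SDs of log2 CPM near those of other genes, with a median of 0.42 for the endothelial and 0.41 for the stromal list against 0.36 over all genes tested. VWF had 245 ± 84.7 CPM (SD, n = 10) and 215 ± 62.3 CPM (SD, n = 11), and the endothelial kinase FLT1 had 42 ± 9.17 and 45.6 ± 11.2 CPM. The median log2 fold change was -0.06 over 6 endothelial genes and -0.03 over 6 epithelial genes. Over all 15483 genes tested, 9058 had a positive log2 fold change, with a median of 0.03. All 44 ribosomal protein genes, paired through the study's lists of differentially expressed genes, had a positive value. Their median was 0.09, and none had P under 0.05. Their summed abundance was highest in library 89, at 34000 CPM, against group medians of 26900 CPM in CycW5 and 24900 CPM in NoCycW5 cows.

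The list that the study gave for this comparison came from fewer cows of each group, in a model with microbiota scores and a cow effect, so its samples and model differ from those used here. Since it was chosen in the same study, it is no independent evidence. Of its 81 genes, 65 were abundant enough to be tested, of which 31 had a higher and 34 a lower fitted level in CycW5 cows. None was called here, and 12 had an unadjusted P under 0.05, 7 higher and 5 lower, where 6.41% of all genes tested had such a P, 4.07% higher and 2.34% lower. SYNE1, SLC38A11, IL6 and CTLA4, described above, were among its members.

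The spread between libraries was larger in the CycW5 group, and the order of the medians turned without libraries 87 and 89. The SD of log2 CPM between libraries had a median over genes of 0.398 in the CycW5 and 0.308 in NoCycW5 at week 9, compared with 0.32 and 0.319 at week 5. It was larger in CycW5 for 11397 genes (73.6%). An SD over 1 was found for 2146 genes in CycW5 and for 1342 in NoCycW5. Without library 89 the CycW5 median was 0.346. Without libraries 87 and 89 it was 0.30, and the SD was larger in CycW5 for 7154 genes (46.2%). Without all 6 libraries of positive PC1 the medians were 0.289 and 0.256, with a larger SD in CycW5 for 9512 genes (61.4%).

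**Figure D5:**
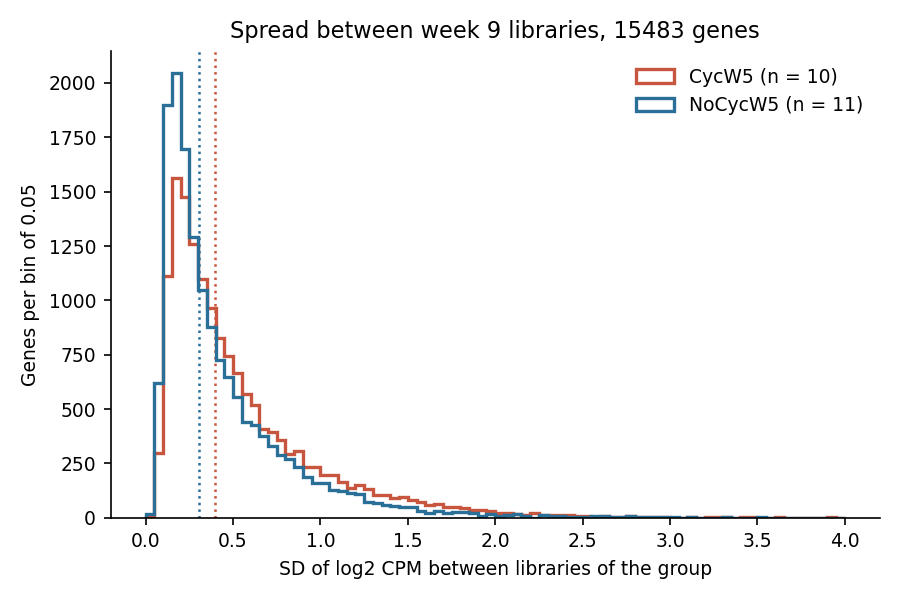
Number of genes (vertical, bins of 0.05) by the SD of their log2 CPM between the libraries of a group (horizontal), for 10 CycW5 and 11 NoCycW5 libraries at week 9, with dotted lines at the medians. The CycW5 curve is shifted to the right, with a median of 0.398 against 0.308.

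A test of the spread itself, limma on absolute deviations from the group mean, called 0 of 15483 genes at a BH P of 0.05 or less (0%). With no adjustment, 1267 genes had P under 0.05 (8.18%), 1155 with a wider spread in CycW5 (7.46%) and 112 with a narrower one (0.723%). In simulations the same test called 0 of 200 genes given a 3-fold larger SD, so the absence of calls carries little weight. Without libraries 87 and 89, which are both of CycW5, the unadjusted count was 460 wider and 411 narrower, with 1 gene called. Without the 6 libraries of positive PC1, which come from both groups, it was 941 wider and 200 narrower, with 1 gene called. Without the 8 libraries of highest PC1 it was 1143 wider and 300 narrower, with 5 genes called. The distance of a library to the mean of the others in its group was 59.4 ± 19.1 (SD, n = 10) in CycW5 and 50.6 ± 15.7 (SD, n = 11) in NoCycW5 cows (two-sided permutation test, P = 0.264). Without libraries 87 and 89 the direction turned, with a difference of -3.22 (exact permutation P = 0.637). The difference was 6.74 without the 6 libraries (exact permutation P = 0.204) and 7.43 without the 8 (exact permutation P = 0.00117). These removals were chosen after seeing the data.

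Library 89 was the most singular. It held the highest level of the 21 libraries for 3176 genes and the lowest for 2664, where a library held the highest for 737 genes on average. For library 87 the numbers were 1498 and 1771. A single library was at least 4-fold above the next for 173 genes, and in 116 of them it was library 89. SLPI, MMP9, CHI3L1 and MEOX1 led those with a symbol. SOD2, mitochondrial superoxide dismutase, was 190 CPM in library 89 with group medians of 8.49 and 7.55 CPM. MUC5B, a gel-forming mucin, was 199 CPM in that library with group medians of 4.33 and 1.96 CPM. Library 87 was alone at least 4-fold above the next for 25 genes, among them SERPINA1. Low levels were less often private to a library, with 63 genes at least 4-fold below the next lowest, 28 of them in library 89 and 12 in library 87. The scaling factors of libraries 89 and 87 were 0.868 and 0.892, and those of the others were 0.969 to 1.039. The 10 most abundant genes took 13.4% of the reads in library 87 and 5.64% to 9.27% in the other libraries.

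Genes with a wide spread were also those with the largest fitted differences. The pooled SD within the groups was at most 0.25 for 5028 genes (32.5%), for which the median absolute log2 fold change was 0.0588. It was over 1 and up to 2 for 1602 genes and over 2 for 169 genes, with median absolute log2 fold changes of 0.547 and 0.619.

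The lead counts were repeated without the libraries that stood apart, an alternative chosen after seeing the data. No gene was called without libraries 87 and 89, without the 6 libraries of positive PC1, or without these and libraries 72 and 80. The unadjusted counts were 760, 646 and 557 genes in that order. Among the 13 libraries left in the last case, 6 CycW5 and 7 NoCycW5, a new first component took 21.7% of the variance. The CycW5 libraries had scores of -5.32 (81), -2.98 (98), -0.578 (92), 14.2 (96), 19.5 (101) and 44.9 (97). The NoCycW5 libraries had scores of -19.7 to -1.27. The group means were 11.6 and -9.97 (exact two-sided permutation test, P = 0.00583). The same difference was -14.4 without libraries 87 and 89 (exact permutation P = 0.314) and 3.59 without the 6 libraries (exact permutation P = 0.582), each on its own first component. Libraries 92, 96, 97 and 101 were above every NoCycW5 library. The leading symbols at the positive end of the component of the 13 libraries were DSC3, ANKS4B, FREM1, RIMS1, C5, SEMA3E, GRIA3, VIL1, CSTA, SMPX, CCL21 and PLIN4. Libraries 97 and 101, highest on this component, also had the highest DSC3 and VIL1 levels described above. The component is therefore no separate evidence for these genes.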

How the data were processed

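Endometrial mRNA was measured in libraries of CycW5 and NoCycW5 cows at weeks 5 and 9. The deposited table holds raw read counts per Ensembl gene, which the authors made from stranded 75-bp single-end reads aligned with Hisat2 to the UMD3.1 genome and counted with FeatureCounts. Versions are not given in the sources used here. No normalized values were used. Symbols were taken from the study's supplementary lists of differentially expressed genes, by the symbol, description or RefSeq accession given there. No sequence was printed.

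Counts were filtered with filterByExpr, scaled by the trimmed mean of M values (TMM) and fitted with edgeR 4.0.16 (glmQLFit, robust, R 4.3.3) over 4 group means, with BH P of 0.05 or less as the threshold. The study's cow and microbiota terms could not be fitted. Spread was tested with limma 3.58.1 on log2 CPM (prior count 2), and PC and distance scores by permutation. No pair among the 210 pairs of libraries agreed within sampling noise. Tests were tried on simulated data first. Totals were 21592867 to 32453713 reads per week 9 library. DESeq2 1.42.0, limma-voom, other filters, PC covariates and leaving out each library were the alternatives.

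Named genes were those with a BH P of 0.05 or less, the 12 higher and 12 lower genes with a symbol and the smallest P, list genes with P under 0.05, with the largest fold change or the largest spread, the paired hormone receptors, 1 of which is not reported here, and the 10 genes of largest spread and of largest PC1 loading. Members and lists were chosen with earlier results of these data known. Lists for ciliated cells, red blood cells, smooth muscle, proliferation, interferon-stimulated genes and antigen presentation had no paired member and were not analysed here.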

Additional observations from a re-analysis of the deposited data

Results flagged for a closer look

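In the 10 CycW5 libraries, a single library was separated from the other 9 by a gap that was large beside the whole range (Dixon's ratio above its 95% critical value) for 10 of 84 measures examined. Chance gives such a gap in about 1 of 20 groups, but that rate does not apply here, since most measures were named genes chosen for small P, fold change or spread in these same libraries. Library 89 was the separate one in 6 of them. It was highest for MEOX1 (gap ratio 0.561), SLPI (0.53) and FGF7 (0.611), lowest for TMEM117 (0.483) and TPST1 (0.553), and highest for the number of genes in which a library held the top level (0.59). Library 87 was lowest for HPGD (0.703), DKK1 (0.547) and KSR2 (0.533) and highest for the share of reads taken by its 10 most abundant genes (0.65).

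For 30 of the 78 named genes, the difference between CycW5 and NoCycW5 cows was not the same at week 9 as at week 5 (interaction of group and week in edgeR, BH P of 0.05 or less, against 7.82% of all genes). Values are the week 9 log2 fold change minus that of week 5. The named genes were partly chosen for a large fold change or spread at week 9. Those with a symbol also came from the study's lists of differentially expressed genes, so their share is not comparable with that of all genes. The contrast was lower at week 9 for genes of the negative end of PC1, namely IL31RA (-5.92), KSR2 (-5.78), LY6G6C (-5.72), IGFBP1 (-5.32), SLC39A2 (-4.83), MYL3 (-4.72), CALB1 (-4.65) and CYP26A1 (-4.49). It was also lower for SLC5A1 (-4.66), WNT11 (-3.52), HPGD (-3.32), SERPINA1 (-3.32), FST (-2.91), ESR2 (-2.45), CLIC5 (-2.40), CLDN4 (-2.35), CLDN3 (-1.80), CRYBG2 (-1.37) and KIAA1257 (-1.36). For 19 genes in all, therefore, the contrast was lower at week 9 than at week 5. Each of them had a positive log2 fold change at week 5. It went from 5.88 to -0.05 for IL31RA, from 3.58 to 0.26 for HPGD and from 1.44 to -0.96 for CLIC5. A lower contrast does not tell whether levels changed in the CycW5 or in the NoCycW5 cows.

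The contrast was higher at week 9 for CCL21 (6.67), MMP9 (6.60), CHI3L1 (4.72), PTGFR (4.01), RIMS1 (3.60), MEOX1 (3.48), PTGES (2.61), A2M (2.31), FGF7 (1.68), VWF (0.99) and FBLN1 (0.78). Library 89 held the highest week 9 level of CCL21, MMP9, CHI3L1, MEOX1, PTGES, A2M, FGF7, VWF and FBLN1.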

How the results depend on the processing

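The count of 1 gene at week 9 was 1 with DESeq2 size factors and without robust estimation. It was 0 with limma-voom, limma-voom with library quality weights, no filter, the stricter filter, week 9 libraries only, and PC1 or PC1 and PC2 as covariates. The filter removed ENSBTAG00000000470 before the stricter-filter, week 9 only and covariate fits. Their counts of 0 therefore hold no test of that gene. It was 12 with the DESeq2 Wald test and 5 with the CycNoP4 libraries counted as CycW5, all higher in CycW5 cows. Leaving out 1 library gave 0 to 5 genes, with 0 in 14 of 21 fits, among them those without CycW5 libraries 87, 97 and 101 and each fit without a NoCycW5 library. It was 5 without library 92, 3 without each of libraries 72, 81, 83, 89 and 96, and 2 without library 98. It was 0 without libraries 87 and 89, without the 6 libraries of positive PC1 and without the 8 libraries of highest PC1, alternatives added after seeing the data. The unadjusted count ranged from 557 to 1313 genes.

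The count of genes that differed in spread was 0 with deviations from the median, squared deviations, the stricter filter and DESeq2 size factors. It was 0 to 7 when 1 library was left out (7 without library 97, 1 without library 72, and 0 without each of the others). Among the added alternatives it was 1 without libraries 87 and 89, 1 without the 6 libraries and 5 without the 8. The PC1 difference ranged from -3.85 to 10.9 without 1 library. On axes computed anew it was -14.4 without libraries 87 and 89 (exact permutation P = 0.314), 3.59 without the 6 libraries (exact P = 0.582) and 21.6 without the 8 (exact P = 0.00583). The difference in distance to the group mean ranged from 3.31 to 13.0 without 1 library and was -3.22 without libraries 87 and 89 (exact permutation P = 0.637), 6.74 without the 6 (exact P = 0.204) and 7.43 without the 8 (exact P = 0.00117). Over 2777 refits of 81 genes, the sign was opposite in 187, and no called value changed sign. No paired analysis was possible because the groups share no replicate numbers. Depth and the wide spread between libraries limit genes of under 1 CPM, where 1 library can set the fitted difference.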
